A study of Mus musculus with 22 samples.

Results

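Chromatin accessibility around 9 genes of the thermogenic program was followed in epididymal adipocyte nuclei of mice made obese and then returned to chow. The genes were Ucp1, Ppargc1a, Ppargc1b, Prdm16, Dio2, Elovl3, Ppara, Cpt1b and Esrrg, 9 of 21938 protein-coding genes examined. Each was described by its locus, the GRCm38 gene span of GENCODE vM21 with 20 kb added on each side. Peaks of the 22 libraries were merged into 104657 open regions, and 108 of these overlapped the 9 loci. Esrrg held 43 of the 108 regions and Prdm16 held 33.

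Thermogenic adipocytes burn fuel in mitochondria and release the energy as heat, chiefly through the uncoupling protein UCP1, which lets protons return across the inner membrane without making ATP. White fat of the epididymal depot is poor in such cells, and the program is set by coactivators of the PGC-1 family, by PRDM16 and by nuclear receptors. DIO2, ELOVL3 and CPT1B act further downstream, on thyroid hormone, on fatty acid chain length and on the entry of fatty acids into mitochondria.

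All mice were males of the genotype AdipoERCre x NuTRAP, on the background that the labels give as C576BL6. The Cre was tamoxifen-inducible and driven by the adiponectin gene, so that biotin marked the nuclei of cells which expressed it when tamoxifen was given, before the diets began. Marked nuclei were pulled down from frozen tissue and assayed by ATAC-seq, and each library came from 1 animal. In the short arm, H mice had 12 weeks of high-fat diet (HFD) and were 18 weeks old, with C mice of that age on chow as controls, and HC mice had a further 8 weeks of chow after the HFD and were 26 weeks old, with CC_s mice of that age on chow as controls. In the long arm, HH mice had 25 weeks of HFD and were 31 weeks old, against CC_l mice of that age on chow, and HHC mice had 8 weeks of chow after the 25 weeks and were 39 weeks old, against CCC mice of that age on chow. Groups held 3 mice, except CC_l and CCC with 2. The sources do not say whether libraries of the short and the long arm were prepared together. Any batch between the arms cannot be told apart from diet duration.

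The libraries held 40528 to 60523 called peaks, which covered 128 to 299 Mb. The files hold the pileup under each peak and no read counts, so the sequencing depth is unknown. Total signal was therefore compared after rank mapping, in which the strongest features of every library receive the same set of log2 values and the rest a common floor, 14.06 for loci and 14.01 for regions. Peak height, as the median of a library over its own minimum, was lowest in HHC replicate 3 and HC replicate 3, at 2.25 and 2.43, and it was 4.70 to 6.40 in H against 6.82 to 8.92 in C. Promoters of 6 of 6 adipocyte marker genes carried a peak in every library. One of them, Pparg, fell at the promoter in HC by 2.73 ± 0.31 (adjusted p = 0.0473) and at the locus after weight loss over both durations by 1.33 ± 0.31 (adjusted p = 0.0348). Of 6 brown adipocyte markers, 3 to 5 carried one, with Cidea and Cox8b in 22 libraries, Zic1 in 8 and Ucp1 in 2. Endothelial promoters carried peaks in 6 of 6 genes in HH replicate 1 and 4 of 6 in HHC replicate 3, and in 0 to 2 elsewhere.

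Sequences at 5 places to which the results return are shown first, in GRCm38 on the strand named. The first is the promoter of Ucp1 as given by RefSeq, chr8:83290098-83290397 on the + strand, in which only 2 libraries held a peak. The others are 200 bases around the highest signal of an open region, on the + strand: upstream of Ucp1 (chr8:83278537-83278736), upstream of Ppargc1a (chr5:51585174-51585373), in an intron of Prdm16 (chr4:154443880-154444079) and in an intron of Esrrg (chr1:188118169-188118368). Capitals mark the nuclear receptor hexamer AGGTCA in the Ucp1 promoter and the Prdm16 intron, and the C/EBP pattern TTGCNNAA in the Esrrg intron.
Ucp1 promoter: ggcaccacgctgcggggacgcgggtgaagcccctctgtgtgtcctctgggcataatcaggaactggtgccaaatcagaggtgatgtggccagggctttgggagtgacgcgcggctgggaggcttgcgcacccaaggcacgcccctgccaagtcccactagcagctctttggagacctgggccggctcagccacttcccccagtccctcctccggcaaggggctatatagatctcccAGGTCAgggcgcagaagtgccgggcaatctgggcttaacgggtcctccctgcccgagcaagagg
Ucp1 upstream region: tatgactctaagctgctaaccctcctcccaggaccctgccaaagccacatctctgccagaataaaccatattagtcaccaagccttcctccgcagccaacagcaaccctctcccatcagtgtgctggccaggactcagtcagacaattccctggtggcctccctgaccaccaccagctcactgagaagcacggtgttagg
Ppargc1a upstream region: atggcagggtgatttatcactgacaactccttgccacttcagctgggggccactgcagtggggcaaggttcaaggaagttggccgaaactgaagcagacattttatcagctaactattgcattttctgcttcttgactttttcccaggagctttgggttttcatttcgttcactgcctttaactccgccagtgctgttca
Prdm16 intron region: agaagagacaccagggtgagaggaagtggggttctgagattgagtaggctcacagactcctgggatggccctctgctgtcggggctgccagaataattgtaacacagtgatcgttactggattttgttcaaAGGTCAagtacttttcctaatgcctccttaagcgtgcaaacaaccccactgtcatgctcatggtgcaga
Esrrg intron region: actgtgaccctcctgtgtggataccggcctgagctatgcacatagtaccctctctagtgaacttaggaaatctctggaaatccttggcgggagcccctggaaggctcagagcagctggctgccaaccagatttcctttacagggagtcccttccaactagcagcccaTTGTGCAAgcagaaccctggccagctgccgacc

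Both strands were searched for 6 patterns: AGGTCA, TTGCNNAA, the ERR element TCAAGGTCA (which contains AGGTCA), the cAMP response element TGACGTCA, the AP-1 pattern TGANTCA and the direct repeat DR1, which is named only. The 2 upstream regions held none of the 6. Among the regions tested in H against C, 13.6% of 30840 windows of the same length held AGGTCA and 18.99% held TTGCNNAA, and 16.3% of 32851 RefSeq promoters held AGGTCA. The matches are a description of the letters and do not show that a factor bound there.

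Covered share, the percent of a locus that called peaks span, ranked the 9 loci per length. Over 22 libraries Ppargc1b was the most covered, at 42.9% ± 19.4 (SD), followed by Ppara at 21.3% ± 7.76 and Elovl3 at 20.4% ± 6.90. Cpt1b had 14.95% ± 5.31, Ucp1 14.8% ± 11.4, Prdm16 12.0% ± 6.54, Dio2 9.32% ± 3.70, Ppargc1a 7.40% ± 1.81 and Esrrg 4.57% ± 1.78. Neighbours in this order differed by less than the larger of their SDs, except Ppargc1b and Ppara, and Ppargc1a and Esrrg. A peak in the promoter, within 2000 bases of a start in the GENCODE basic annotation, was present in all 22 libraries for Ppargc1a, Ppargc1b and Dio2, in 21 for Ppara and Cpt1b, in 18 for Esrrg, in 15 for Prdm16 and in 5 for Elovl3. Ucp1 stood at the other end with 2.

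**Figure D1:**
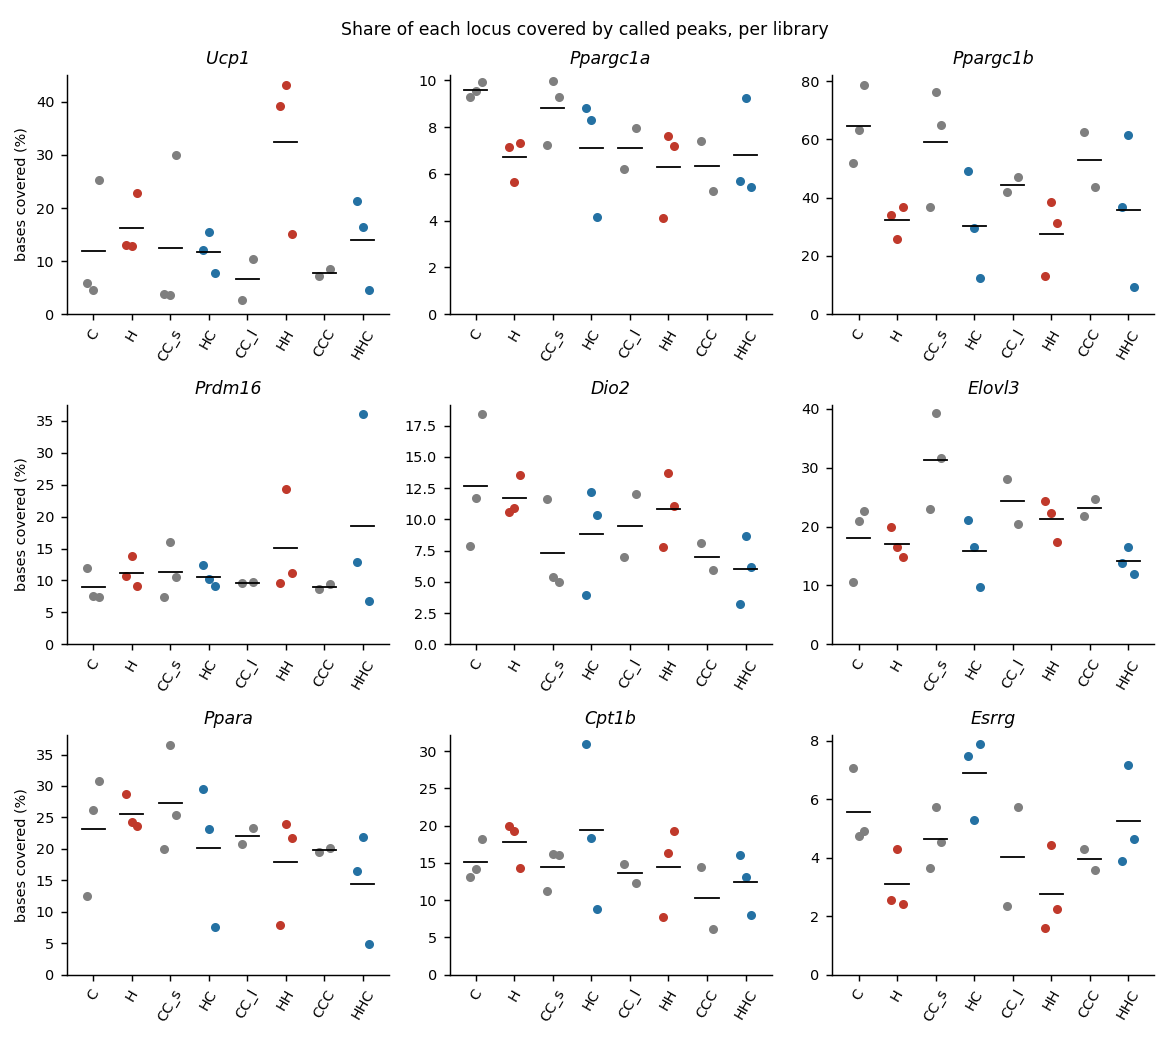
Percent of each of the 9 loci covered by called peaks (y axis), by group (x axis), with 1 point a library and a bar at each group mean. Ppargc1b lay between 52.0% and 78.8% in C and between 25.8% and 36.9% in H, and Ucp1 reached 43.1% in HH.

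No locus of the 9 passed the threshold of adjusted p under 0.05 with a log2 difference over 1 in limma, in any comparison. Over all loci tested, 5.74% passed in H against C, 0% in HC against CC_s, 0.00579% in HH against CC_l and 0% in HHC against CCC. Over both durations, 3.28% passed for obese against control and 1.07% for weight loss against control. At an unadjusted p under 0.05, of any size, 5 of the 9 loci differed in H against C (31.2% of all loci), 2 in HC against CC_s (8.99%), 2 in HH against CC_l (12.1%) and 1 in HHC against CCC (4.04%). Over both durations 5 did in obesity (22.9%) and 5 after weight loss (21.7%). At an unadjusted p under 0.01 with a difference over 1, Ucp1 passed in HH against CC_l (background 2.83%) and in obese against control over both durations (background 3.99%), and Prdm16 in HHC against CCC (background 0.574%). A lower signal can be fewer nuclei with an open site or a less open site in each nucleus, which cannot be told apart here.

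Promoter signal called none of the members tested, which were 6 of the 9 in H and in HC, 8 in HH, 7 in HHC and 8 over both durations. The Ucp1 promoter was tested in no comparison, that of Prdm16 in neither H nor HC, and that of Elovl3 in none of H, HC and HHC. The share of all promoters called was 1.98% in H against C, 0.0866% in HC against CC_s, 0.0843% in HH against CC_l and 0% in HHC against CCC, and 1.29% and 0.135% for obese and weight loss over both durations. At an unadjusted p under 0.05, of any size, 2 of 6 members differed in H against C (21.1% of all promoters), 1 of 7 in HHC against CCC (4.25%), 2 of 8 in obesity (14.9%) and 2 of 8 after weight loss (14.6%) over both durations, with 0 in HC against CC_s (6.08%) and in HH against CC_l (7.41%). They were Cpt1b and Esrrg in H against C, Esrrg in HHC against CCC, Esrrg and Ppargc1a in obesity and Esrrg and Cpt1b after weight loss.

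**Figure D2:**
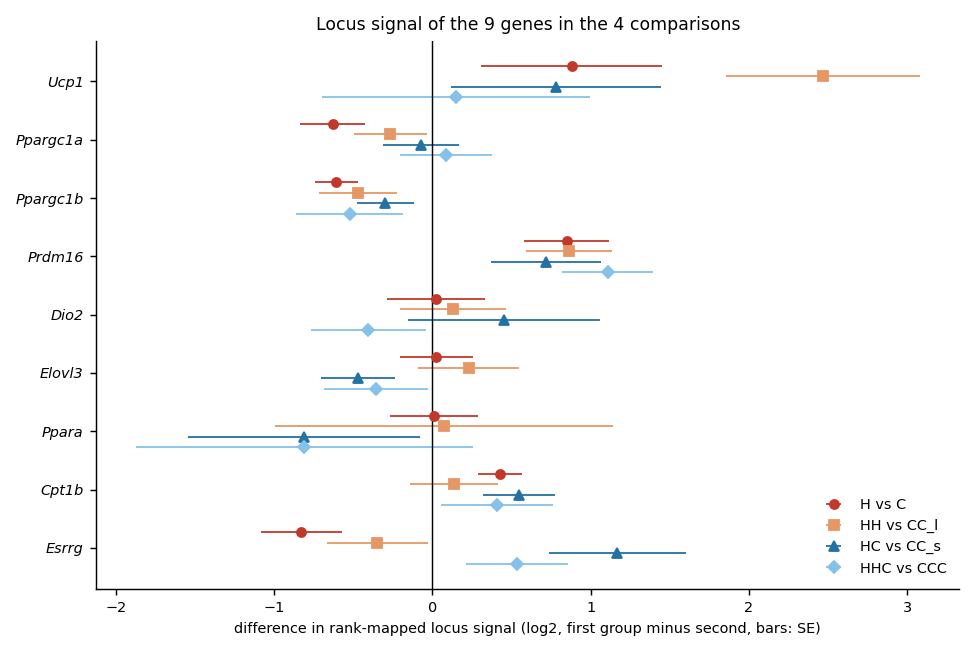
Difference in rank-mapped locus signal on the log2 scale (x axis, treated minus control, bars: SE) for the 9 genes (y axis) in the 4 comparisons. Ucp1 in HH against CC_l lay farthest to the right at 2.47, and Esrrg was at -0.83 in H against C and 1.17 in HC against CC_s.

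Ucp1 (ENSMUSG00000031710.4, chr8:83290352-83298452, + strand), the uncoupling protein itself, was closed over its body and promoter in 20 of 22 libraries. The only peaks inside the gene came from HC replicate 1 and HH replicate 1, and both stood at the floor of promoter signal, so that the promoter was not tested. Apart from these peaks, the covered part of the locus lay outside the gene, and it differed widely between animals of 1 group. It was 5.80%, 4.58% and 25.3% in C and 13.0%, 12.8% and 22.9% in H, and 2.73% and 10.4% in CC_l against 39.2%, 43.1% and 15.1% in HH. All 3 HH libraries were above both CC_l libraries, a pattern that 5.98% of all genes showed in this direction. C and H overlapped. Exact permutation within a single pair cannot give a p below 0.1, so such separations carry no p.

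After weight loss the Ucp1 values overlapped with those of the controls. Covered share was 12.0%, 15.4% and 7.70% in HC against 3.76%, 3.64% and 30.0% in CC_s, and 21.3%, 16.4% and 4.49% in HHC against 7.10% and 8.46% in CCC. Rank-mapped locus signal in HH was 18.41, 18.08 and 16.59 against 14.72 and 15.73 in CC_l, a difference of 2.47 ± 0.61 (SE), with adjusted p = 0.208 by limma. The same difference was 0.88 ± 0.57 in H against C, 0.78 ± 0.66 in HC against CC_s and 0.15 ± 0.85 in HHC against CCC. Over both durations it was 1.67 ± 0.56 for obesity (adjusted p = 0.0762) and 0.47 ± 0.56 for weight loss (adjusted p = 0.620). With the highest signal in place of the total the obese difference was 0.50 with adjusted p = 0.562. It was 2.00 with adjusted p = 0.0375 without C replicate 3, the C library with the most open Ucp1 locus. HH replicate 1, highest of all libraries at this locus, was the library with 6 open endothelial promoters, and without it the HH difference was 2.11 with adjusted p = 0.146. HH replicate 2, with 0 open endothelial promoters, had a covered share of 43.1%, the highest of the 22. Endothelial promoters were closed in C and CC_l (0 of 6, summed signal 85.8), open in 0 to 1 of 6 in H (85.8 to 86.0) and in 0 to 6 in HH (85.8 to 94.0). The locus of Cdh5, an endothelial cadherin, rose in H by 2.89 ± 0.40 (adjusted p = 0.0125), the 1 of 3 tested that was called, beside 5.74% of all loci. In obesity over both durations it rose by 2.84 ± 0.61 (adjusted p = 0.00935), the 1 of 6 called, beside 3.28%. The part of these endothelial genes in the Ucp1 values was not tested.

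The widest open stretch at Ucp1 lay between genes, chr8:83266635-83281630, with its highest point -11.7 kb from the start of the gene. Peaks were called there in 16 libraries, with 3 of 3 in H, HH and HHC, 2 of 3 in HC, 2 of 2 in CCC, 1 of 2 in CC_l and 1 of 3 in C and in CC_s. The signal of the stretch was 17.56, 16.90 and 15.78 in HH against 14.01 and 14.65 in CC_l, a difference of 2.41 ± 0.55 with adjusted p = 0.177. No region in the genome passed the adjusted threshold in HH against CC_l (0%), and at the unadjusted threshold 2.68% did. Over both durations the obese difference was 1.47 ± 0.49 with adjusted p = 0.0704, and the weight loss difference 0.62 ± 0.49 with adjusted p = 0.531. The obese difference passed without C replicate 3, H replicate 2 or HH replicate 3, at 1.74, 1.74 and 1.71 with adjusted p = 0.0358, 0.0423 and 0.0485. It also passed with the highest signal in place of the total, at 1.12 with adjusted p = 0.0192.

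**Figure D3:**
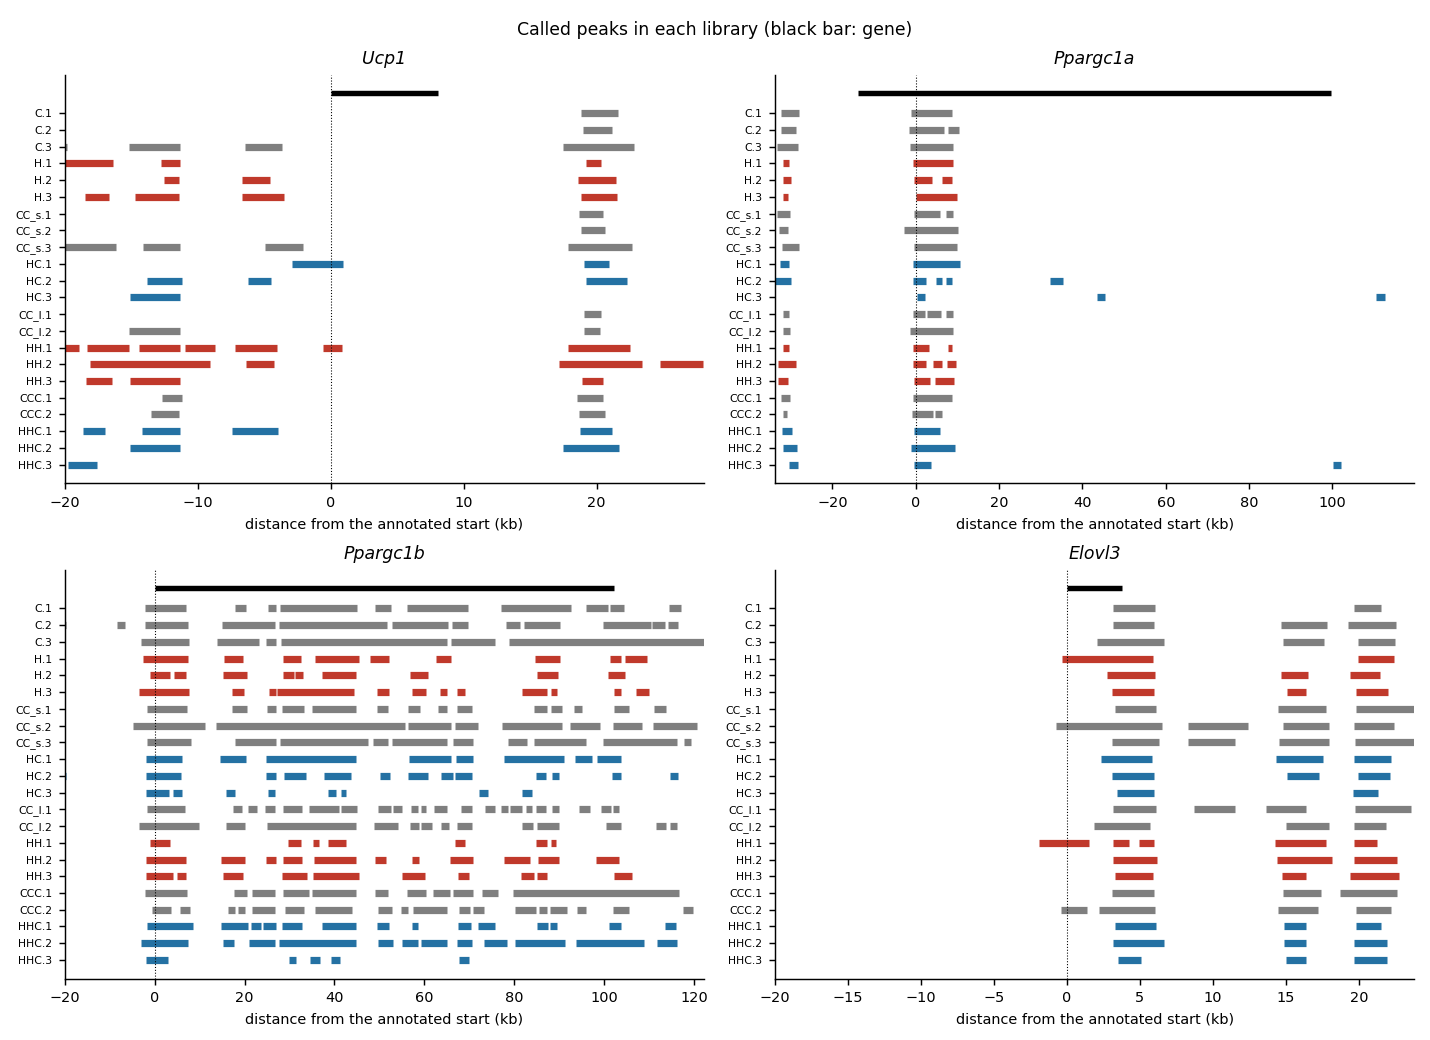
Called peaks at Ucp1, Ppargc1a, Ppargc1b and Elovl3 in each of the 22 libraries (rows) by distance from the annotated start in kb (x axis), with a black bar for the gene. At Ucp1 the bars lie outside the gene in 20 libraries, mostly near -11.7 kb and 19.7 kb.

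A second stretch, from -7.43 to 0.95 kb of the Ucp1 start and so overlapping the promoter, was called in 9 libraries, and HH replicate 1 was highest there at 16.27. One more, with its highest point at 19.7 kb, was called in 20 libraries. The locus also contains parts of Elmod2 and Tbc1d9, so that its signal need not belong to Ucp1.

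Ppargc1a (ENSMUSG00000029167.13, chr5:51454250-51567726, - strand) encodes PGC-1alpha, the cold-induced coactivator of mitochondrial biogenesis. Its promoter was open in every library. Covered share was 9.30%, 9.54% and 9.95% in C and 7.14%, 5.66% and 7.30% in H, so that the groups did not overlap. In the long arm, HH had 4.13%, 7.61% and 7.17% and CC_l 6.22% and 7.98%, which overlapped. Values after weight loss were 8.80%, 8.30% and 4.15% in HC against 7.23%, 9.95% and 9.30% in CC_s. HHC had 5.69%, 9.25% and 5.43% against 7.39% and 5.29% in CCC. Both pairs overlapped. Over both durations the obese mean differed by -1.85 points, with exact permutation p = 0.060 and adjusted p = 0.292.

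Ppargc1a, Ppargc1b and Esrrg were the 3 members whose covered share was lower in every H than in every C library, and 14.4% of all genes were. Locus signal of Ppargc1a differed by -0.63 ± 0.21 on the log2 scale in H against C (adjusted p = 0.0912). In the other pairs it was -0.07 ± 0.24 for HC, -0.27 ± 0.23 for HH and 0.09 ± 0.29 for HHC, none past the threshold.

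Within the Ppargc1a locus 1 region fell in H. It lay between genes at chr5:51581977-51588144 with its highest point at -31.4 kb from the nearest start in the GENCODE basic annotation (a longer transcript outside that set begins closer), and 21 libraries called it. Its signal was 15.77, 15.22 and 15.45 in C against 14.10, 14.01 and 14.28 in H, a difference of -1.35 ± 0.23 with adjusted p = 0.0115. In the long arm the order was not the same, with 14.78, 15.12 and 14.95 in HH against 14.78 and 14.60 in CC_l. HC had 14.28, 15.18 and the floor and CC_s 15.04, 14.16 and 15.08. The obese difference of the short arm minus that of the long arm was -1.61 ± 0.46, with adjusted p = 0.619, a comparison chosen after seeing the data. The call was lost without C replicate 2, H replicate 1 or H replicate 2, at adjusted p = 0.0616, 0.0537 and 0.0540.

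Ppargc1b (ENSMUSG00000033871.14, on chromosome 18, - strand) encodes PGC-1beta, which sustains basal mitochondrial gene expression. By the mean covered share over 22 libraries it was the most open of the 9 loci, but in HH Ucp1 had the higher mean, 32.5% against 27.6%. One merged stretch of 109 kb ran through it. Covered share was 52.0%, 63.3% and 78.8% in C against 33.9%, 25.8% and 36.9% in H, and 41.9% and 47.1% in CC_l against 13.1%, 38.5% and 31.4% in HH. Every obese library was thus below every control of its own age. The HH pattern was shown, in the lower direction, by 13.4% of all genes.

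After weight loss the covered shares of Ppargc1b overlapped with control. HC had 49.0%, 29.6% and 12.3% and CC_s 36.7%, 76.2% and 65.0%, while HHC had 36.9%, 61.3% and 9.23% and CCC 62.4% and 43.7%. The obese difference over both durations was -24.7 points with exact permutation p = 0.010 and adjusted p = 0.159, and 12.1% of all genes were lower at an exact p under 0.05. The weight loss difference was -23.1 points with exact permutation p = 0.095 and adjusted p = 0.544. The lowest library of HC and of HHC were their replicates 3, those of lowest relative peak height, and without them the weight loss difference was -11.9 points with exact p = 0.300.

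Locus signal at Ppargc1b was 19.62, 19.61 and 19.69 in C against 19.02, 18.82 and 19.26 in H, a difference of -0.61 ± 0.13 with adjusted p = 0.0358, under the required size of 1. That adjusted p was 0.0323 to 0.111 as each library was left out. It was 18.64, 19.31 and 19.23 in HH against 19.68 and 19.37 in CC_l, 19.28, 19.14 and 18.77 in HC against 19.32, 19.36 and 19.41 in CC_s, and 19.34, 19.45 and 18.47 in HHC against 19.495 and 19.72 in CCC. In each of the 4 pairs the highest treated library was thus below the lowest control, in HC and HHC by a narrow margin, and 17.8% of all loci showed this in H, 17.1% in HH, 9.47% in HC and 14.3% in HHC. HH differed by -0.47 ± 0.24 (adjusted p = 0.510), HC by -0.30 ± 0.18 (adjusted p = 0.618) and HHC by -0.52 ± 0.34 (adjusted p = 0.856). Over both durations obesity gave -0.54 ± 0.17 (adjusted p = 0.0601) and weight loss -0.41 ± 0.17 (adjusted p = 0.187), the latter -0.18 (adjusted p = 0.542) without HC replicate 3 and HHC replicate 3. Promoter signal of Ppargc1b was between 16.74 and 17.72 in all 22 libraries. The locus also overlaps Pde6a.

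Of the lymphocyte marker promoters described here, those of Cd3e and Cd4 carried a peak in none of 22 libraries, those of Cd3d and Ms4a1 in 1 and that of Cd79a in 6. The Cd4 locus fell in obesity over both durations by 1.11 ± 0.33 (adjusted p = 0.0472), where 3.28% of all loci were called. Their part in the Ppargc1b values was not tested.

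Prdm16 (ENSMUSG00000039410.16, chr4:154316125-154636873, - strand), a zinc-finger coregulator that sets brown and beige identity, had a higher mean locus signal than control in all 4 comparisons. Rank-mapped signal was 18.59, 17.83 and 17.60 in C against 18.83, 19.10 and 18.63 in H, and 18.74 and 18.36 in CC_l against 19.26, 19.88 and 19.11 in HH. After weight loss it was 18.27, 18.21 and 18.02 in CC_s against 18.41, 18.58 and 19.67 in HC, and 18.00 and 18.50 in CCC against 19.21, 19.75 and 19.12 in HHC. In each of the 4 pairs the lowest treated library was above the highest control, which held for 20.1% of all loci in H, 6.73% in HC, 15.3% in HH and 10.7% in HHC.

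The differences at Prdm16 were 0.85 ± 0.27 in H (adjusted p = 0.0878), 0.72 ± 0.35 in HC (adjusted p = 0.583), 0.86 ± 0.27 in HH (adjusted p = 0.298) and 1.11 ± 0.29 in HHC (adjusted p = 0.856). Over both durations the obese difference was 0.85 ± 0.24 with adjusted p = 0.0365, under the size of 1, and the weight loss difference 0.91 ± 0.24 with adjusted p = 0.0553. H passed without C replicate 1 at 1.14 (adjusted p = 0.0315), and weight loss over both durations without HC replicate 1 at 1.03 (adjusted p = 0.0468). Without HC replicate 3 and HHC replicate 3 the weight loss difference was 0.78 with adjusted p = 0.0810. With the highest signal in place of the total, the obese difference was 0.15 and the weight loss difference 0.05. Covered share of the locus overlapped between treated and control in every pair, with a highest value of 36.0% in HHC replicate 2.

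Markers of adipocyte progenitors also stood higher at the locus, with medians over 6 genes of 0.30 in H, 0.44 in HC, 0.41 in HH and 0.51 in HHC, beside -0.01, -0.02, -0.03 and -0.04 over all loci. One of the 6 was called, Lum, a matrix proteoglycan, which rose in obesity over both durations by 1.63 ± 0.36 (adjusted p = 0.0118), where 3.28% of all loci were called. At their promoters 3 to 5 of 6 carried a peak in every library, with Pdgfra, Cd55 and Dcn in 22, Dpp4 in 16, Pi16 in 5 and Lum in 4. Their summed promoter signal overlapped in every pair, at 90.6 to 92.0 in H against 88.9 to 91.9 in C, 90.9 to 94.0 in HC against 90.4 to 91.4 in CC_s, 91.3 to 93.7 in HH against 90.2 to 92.2 in CC_l and 90.8 to 94.0 in HHC against 89.9 to 92.6 in CCC. Their part in the Prdm16 values was not tested.

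Of the open regions along Prdm16, 9 were tested in H against C and 9 of 9 had a higher mean in H, with a median of 0.55 beside -0.05 over all regions. The mean was higher in 11 of 14 regions in HH, 14 of 15 in HHC and 7 of 11 in HC, with medians of 0.48, 0.60 and 0.33. Over both durations 14 of 19 were higher, 4 lower and 1 equal in obesity, with a median of 0.16, and after weight loss 18 were higher and 1 equal, with a median of 0.29. A region that is at the floor in every control passes the filter only through the treated group and has to be higher, which was so for 2 of the 9 in H, 1 of the 14 in HH, 2 of the 15 in HHC, 4 of the 19 in obesity and 6 of the 19 after weight loss. In H against C, 2 regions passed the threshold, both intronic, and they were the 2 at the floor in every C library. One, at chr4:154439287-154447162 and 193 kb into the gene, was at 14.01 in all 3 C libraries and at 15.85, 15.22 and 15.05 in H, a difference of 1.36 ± 0.25 with adjusted p = 0.0140. The other, chr4:154325655-154338337, was uncalled in C and at 15.33, 15.78 and 14.51 in H, with 1.19 ± 0.31 and adjusted p = 0.0374, a call kept only without H replicate 3 and lost without each of the other 5 libraries at adjusted p = 0.0940 to 0.154. With no filter on regions at the floor neither passed, at adjusted p = 0.152 and 0.401. Over all regions tested 4.93% rose in H.

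The former region was at 14.01, 15.24 and 15.11 in HH against 14.94 and 14.01 in CC_l, and at 14.01, 14.27 and 14.01 in HC. HHC had 15.32, 15.17 and 14.01 against 14.01 and 14.26 in CCC. None of these pairs passed the test. Without C replicate 1, 2 or 3 the adjusted p of its H difference was 0.0641, 0.0875 and 0.0510. The Prdm16 promoter carried a peak in 15 libraries, of which 2 in HHC and 1 in HH were above 16.9 and the rest below 15.7. The locus overlaps Arhgef16 and B230104I21Rik.

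Esrrg (ENSMUSG00000026610.13, chr1:187608791-188214885, + strand) encodes ERRgamma, an orphan nuclear receptor that drives oxidative metabolism with PGC-1. Its mean locus signal was below control in both obese groups and above control in both weight loss groups, none past the threshold. Locus signal was 18.98, 18.47 and 18.19 in C against 17.54, 18.09 and 17.52 in H, and 17.92 and 18.56 in CC_l against 17.53, 18.32 and 17.82 in HH. It was 18.21, 17.85 and 18.00 in CC_s against 18.68, 18.66 and 20.23 in HC, and 18.22 and 18.37 in CCC against 18.43, 18.70 and 19.36 in HHC. H lay wholly below C, as 17.8% of all loci did, and HC and HHC wholly above their controls, as 6.73% and 10.7% did, whereas HH and CC_l overlapped.

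The Esrrg differences were -0.83 ± 0.25 in H (adjusted p = 0.0793), -0.35 ± 0.32 in HH (adjusted p = 0.707), 1.17 ± 0.43 in HC (adjusted p = 0.514) and 0.53 ± 0.32 in HHC (adjusted p = 0.856). With the 20000 strongest peaks of each library the H difference was -2.07 (adjusted p = 0.0166) and the obese difference over both durations -1.37 (adjusted p = 0.0126), both past the threshold. HC replicate 3 and HHC replicate 3 held the highest values, and without them the weight loss difference over both durations was 0.46 (adjusted p = 0.283) in place of 0.85 (adjusted p = 0.106). With the highest signal in place of the total that difference was -0.10.

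The obese difference minus the weight loss difference was itself tested in limma, a comparison chosen after seeing the data. For the Esrrg locus it was -1.997 ± 0.52 in the short arm (adjusted p = 0.354) and -1.44 ± 0.39 over both arms (adjusted p = 0.206). For its promoter it was -1.55 ± 0.41 over both arms (adjusted p = 0.403). No locus and no promoter of any gene passed in this comparison. Among regions 0.0692% of all passed in the short arm, 0% in the long arm and 0.0672% over both arms, with 0 of 56 member regions in each. The lowest adjusted p of a member region was 0.226, at the intronic Esrrg region 53.5 kb past the start.

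Covered share of Esrrg was 7.05%, 4.75% and 4.90% in C and 2.54%, 4.31% and 2.43% in H. HH had 1.59%, 4.45% and 2.24% against 2.33% and 5.74% in CC_l, which overlapped. HC had 7.48%, 5.30% and 7.89% against 3.66%, 5.74% and 4.54% in CC_s, and HHC 3.90%, 7.18% and 4.65% against 4.30% and 3.58% in CCC, and both pairs overlapped. The obese difference was -1.87 points (exact permutation p = 0.080, adjusted p = 0.333) and the weight loss difference 1.78 points (exact permutation p = 0.065, adjusted p = 0.544). A peak at the Esrrg promoter was present in 3 of 3 C libraries but 1 of 3 in H and 1 of 3 in HH, and in 3 of 3 in HC and in HHC.

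Along the gene, 9 of 10 Esrrg regions tested had a lower mean in H than in C, with a median of -0.69 beside -0.05 over all regions. In HH 9 of 11 had a lower mean than in CC_l, with a median of -0.24 beside -0.03 over all regions. After weight loss 11 of 15 had a higher mean over both durations, with a median of 0.08 beside 0.00 over all regions. In H, 4 Esrrg regions fell, which with the Ppargc1a region made 5 of 38 member regions tested, and 3.36% of all regions fell. The whole count of 7 called member regions was 0 to 6 as each library was left out, with 0 without C replicate 2, 2 without C replicate 1, H replicate 1 or H replicate 2, and 3 without C replicate 3. The shares of all regions called in those runs are not given here. With no filter on regions at the floor the member count was 0, and 360 regions of the genome were called in place of 2555. Of the 10 Esrrg regions tested in H, 3 were at the floor in every H library and so had to be lower. The same held for 2 of the 11 in HH, while 1 of the 11 was at the floor in every CC_l library and 2 of the 15 after weight loss in every control, and these had to be higher.

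**Figure D4:**
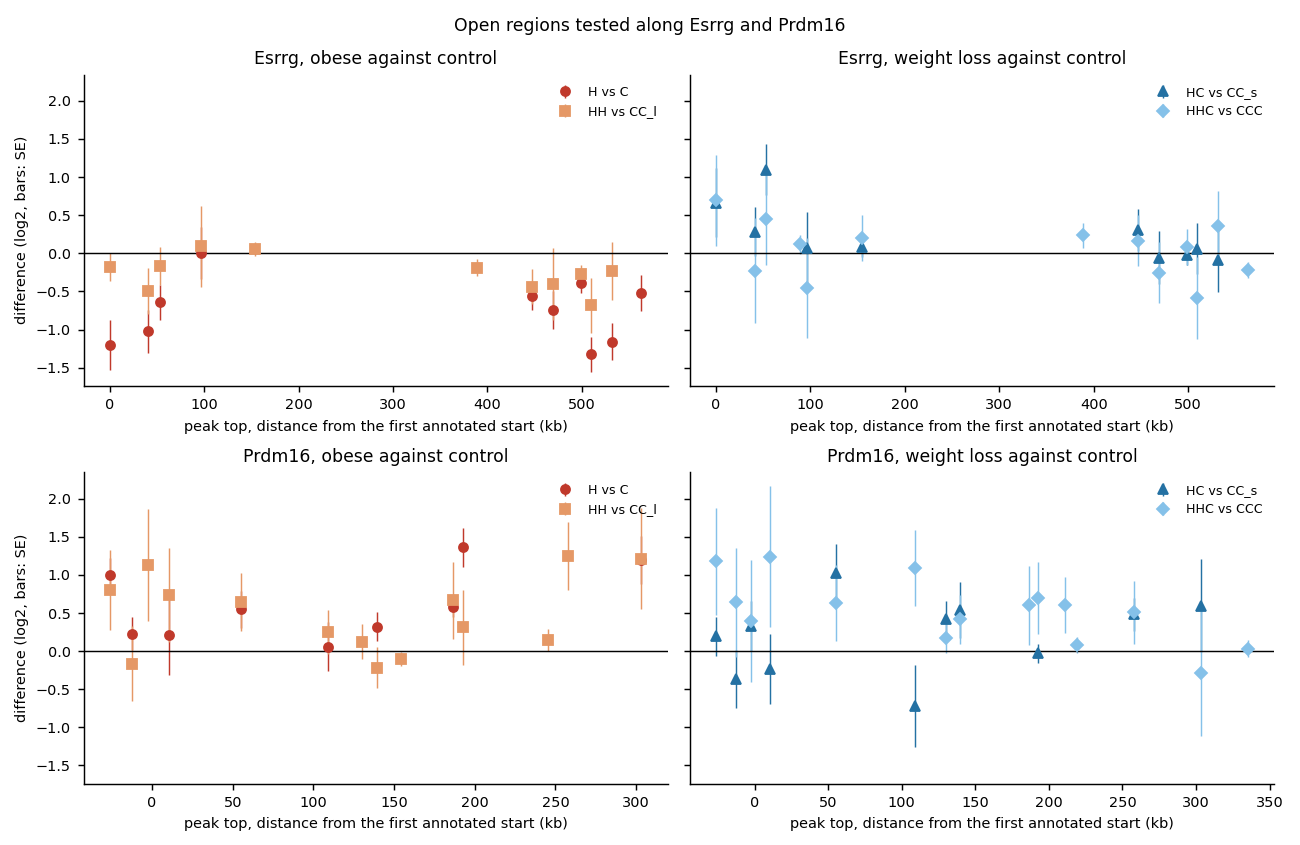
Differences in region signal (y axis, log2, bars: SE) along Esrrg and Prdm16, by distance of the peak top from the first annotated start in kb (x axis), for the 4 comparisons. In H against C, 9 of 10 Esrrg regions lie below 0 and 9 of 9 Prdm16 regions above it.

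The intronic Esrrg region at chr1:188116020-188121985, 120 kb past the nearest start, had the smallest p of the members. Its signal was 15.64, 15.69 and 15.44 in C against 14.36, 14.04 and 14.40 in H, a difference of -1.33 ± 0.23 with adjusted p = 0.0113. HH had 14.29, 14.68 and 14.95 against 15.11 and 15.54 in CC_l, and the obese difference over both durations was -1.01 ± 0.22 with adjusted p = 0.0076. It was the 1 member region of 56 tested that passed in that comparison, which 3.12% of all regions did, and 3.46% at the unadjusted threshold. In HC it stood at 15.26, 15.31 and 15.48 against 15.40, 15.45 and 15.02 in CC_s, a difference of 0.06 ± 0.33. HHC had 14.76, 15.18 and the floor against 15.53 and 14.96 in CCC, a difference of -0.59 ± 0.54 (adjusted p = 0.805), and weight loss over both durations gave -0.26 ± 0.22 (adjusted p = 0.544).

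Without C replicate 1 or 2, H replicate 2, CC_l replicate 2 or HH replicate 1 the obese difference of that region was -0.90 to -0.99, under the size of 1, with adjusted p = 0.0143 to 0.0491. Its H difference had adjusted p = 0.0502 without C replicate 1 and 0.0724 without C replicate 2. The highest signal in place of the total gave -0.55 in H with adjusted p = 0.0481. The obese call was also lost with the highest signal (-0.36, adjusted p = 0.530), with scaling to the library total (-0.81, adjusted p = 0.371) and with the 20000 strongest peaks (-0.10, adjusted p = 0.139), and the region left the test where peaks had to cover 50% of it.

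Of the other Esrrg regions that fell in H, one lay over the first annotated start. It was at 15.97, 15.09 and 14.59 in C against the floor in all 3 H libraries (-1.20 ± 0.33, adjusted p = 0.0437). The others were an intronic region at 41.1 kb (-1.02 ± 0.28, adjusted p = 0.0435) and one at 143 kb from the nearest start (-1.16 ± 0.24, adjusted p = 0.0189). The Esrrg promoter taken over all its starts was not called in H (-1.19 ± 0.46, adjusted p = 0.211). A region over later starts, chr1:187996313-187999809, was called in 9 libraries and not tested in H. Its obese difference over both durations was -0.29 ± 0.10 (adjusted p = 0.0792). The region over the first start passed the filter only through C, and with no filter its adjusted p was 0.450. It kept its call only without C replicate 3, and lost it without each of the other 5 libraries at adjusted p = 0.0605 to 0.142. The region at 41.1 kb lost its call without any 1 of the 6 libraries, at adjusted p = 0.0570 to 0.160, and that at 143 kb without C replicate 2 or 3 or H replicate 1 or 2, at 0.0550 to 0.1004. At 53.5 kb a further intronic region, chr1:187660187-187667826, was at 15.64, 15.65 and 15.05 in HC against 14.27, 14.25 and 14.53 in CC_s (1.10 ± 0.33, adjusted p = 0.249). HC against CC_s had 0% of regions called at the adjusted and 2.54% at the unadjusted threshold, and HHC against CCC 0% and 0.706%. Over both durations no member region passed after weight loss, where 0.981% of all regions did. At an unadjusted p under 0.05, of any size, 17 of 38 member regions differed in H (34.9% of all regions), 3 of 38 in HC (12%), 2 of 44 in HH (13.7%) and 1 of 45 in HHC (6.14%). Over both durations 25 of 56 did in obesity (23.2%) and 6 of 56 after weight loss (16.4%). The region at 53.5 kb passed without HHC replicate 3 (1.02, adjusted p = 0.0233), in which it was uncalled.

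Promoters of mesothelial marker genes, of the cells that line the depot, were also least open in H and HH. Of 6, 0 or 1 carried a peak in each H and HH library, with summed signal 85.8 to 85.9, and Upk1b in none of the 22. In C it was 2 to 4 with 86.3 to 89.4, in CC_s 2 to 3 with 87.1 to 91.5, and in CC_l 2 with 86.7 to 89.6. HC had 2 to 3 with 88.9 to 93.6, HHC 2 to 5 with 88.9 to 92.5 and CCC 1 to 3 with 86.1 to 87.0. At the locus, Lrrn4 fell in H by 1.27 ± 0.18 (adjusted p = 0.0140) and Upk1b rose by 1.85 ± 0.24 (adjusted p = 0.0113). Their part in the Esrrg values was not tested.

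**Figure D5:**
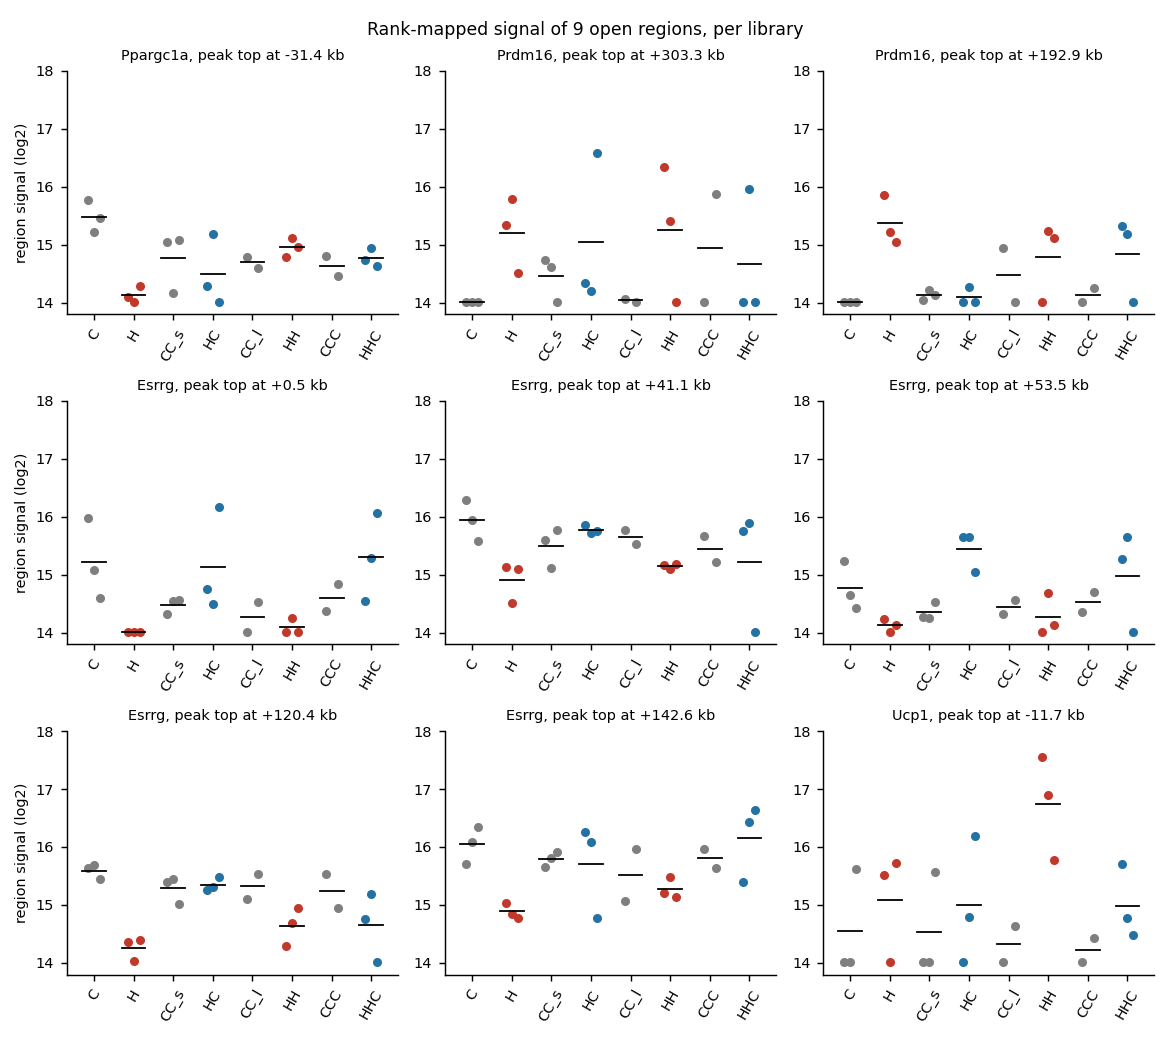
Rank-mapped signal (y axis, log2) of 9 open regions by group (x axis), with 1 point a library and a bar at each group mean. The Esrrg region 120 kb past the nearest start lies at 14.04 to 14.40 in H and 15.44 to 15.69 in C, and the Ucp1 region at -11.7 kb reaches 17.56 in HH.

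Ppara (ENSMUSG00000022383.13, chr15:85734983-85802819, + strand), the nuclear receptor that turns on fatty acid oxidation, passed no test at the locus. Its locus signal ran from 17.22 in HHC replicate 3 to 20.87 in H replicate 2. A stretch of 88.3 kb, from -97.2 to -8.95 kb of the nearest start, reached into the locus. Its highest point, at -36.2 kb, lay outside. Peaks that reached into a locus were counted whole, so the locus signal includes signal from outside and need not belong to Ppara. The locus signal differences were 0.01 ± 0.28 in H, -0.81 ± 0.73 in HC, 0.08 ± 1.07 in HH and -0.81 ± 1.06 in HHC, with adjusted p of 0.690 and above. With an SE of 1.07, a difference of 1 was not detectable in the long arm. Covered share was 28.8%, 24.3% and 23.7% in H against 12.5%, 26.2% and 30.8% in C. Cdpf1 and Pkdrej lie in the same locus.

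Dio2 (ENSMUSG00000007682.6, chr12:90724552-90738438, - strand), which converts thyroxine to the active hormone inside the cell, had an open promoter in every library. Its locus signal was 15.74, 15.66 and 16.69 in C against 15.91, 15.97 and 16.28 in H, and the difference of 0.02 ± 0.31 had adjusted p = 0.969. HC ran from 14.55 to 16.33 and CC_s from 14.56 to 16.10. The remaining differences were 0.45 ± 0.61 in HC, 0.13 ± 0.33 in HH and -0.40 ± 0.36 in HHC. Locus signal in HHC was 15.03, 15.27 and 15.41 against 15.79 and 15.49 in CCC, wholly lower, as 14.3% of all loci were. Covered share was 3.26% to 18.4% over the 22 libraries and overlapped in every pair.

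Elovl3 (ENSMUSG00000038754.5, chr19:46131897-46135694, + strand), which elongates very long chain fatty acids and is cold-induced in brown fat, had a lower covered share in every weight loss library than in every control of its age. Covered share was 21.2%, 16.5% and 9.75% in HC against 23.0%, 39.2% and 31.6% in CC_s, and 13.9%, 16.5% and 11.9% in HHC against 21.8% and 24.7% in CCC. Neither pair overlapped, a pattern in the lower direction for 7.87% and 8.58% of all genes. The difference over both durations was -12.3 points, with exact permutation p = 0.0050, the smallest that 200 relabellings allow, and adjusted p = 0.544. Over all genes 6.62% were lower at an exact p under 0.05.

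In obesity Elovl3 overlapped with control, at 19.9%, 16.5% and 14.8% in H against 10.7%, 21.0% and 22.6% in C and 24.3%, 22.3% and 17.3% in HH against 28.1% and 20.5% in CC_l. Its locus signal differed by -0.47 ± 0.23 in HC, -0.36 ± 0.33 in HHC and -0.41 ± 0.19 over both durations (adjusted p = 0.220). With the gene span alone the covered difference after weight loss was -28.7 points with exact p = 0.165. Without HC replicate 3 and HHC replicate 3 it was -10.2 points with exact p = 0.033. The locus is shared with Gbf1 and Pitx3, and 5 libraries had a peak at the Elovl3 promoter itself.

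Cpt1b (ENSMUSG00000078937.8, chr15:89416405-89425863, - strand) encodes the muscle form of carnitine palmitoyltransferase, which admits fatty acids to mitochondria. Its main region covers the promoter, but the highest point lay at -4.07 kb, in an exon of C730034F03Rik, and Chkb, Syce3 and Gm44502 share the locus. The signal of that region was 16.97, 17.11 and 17.17 in C against 17.61, 17.48 and 17.60 in H, a difference of 0.48 ± 0.12 with adjusted p = 0.0338, under the size of 1. It was 17.15, 16.87 and 16.81 in CC_s against 17.43, 17.38 and 17.47 in HC (0.49 ± 0.19, adjusted p = 0.360). Over both durations weight loss gave 0.48 ± 0.13 with adjusted p = 0.0528 and obesity 0.34 ± 0.13 with adjusted p = 0.108. CCC replicate 2 had no peak at the Cpt1b promoter. The locus signal was higher by 0.43 ± 0.14 in H (adjusted p = 0.0879). Of 6 muscle marker promoters, 2 to 3 carried a peak in each library, Acta1 in 22 and Des in 21, while Ckm and Myh4 were closed in all 22. Their summed signal was 89.1 to 90.4 in H against 87.6 to 88.9 in C and 89.3 to 90.6 in HC against 87.8 to 88.3 in CC_s, without overlap in either pair, but 87.2 to 89.1 in HH against 87.7 to 88.1 in CC_l and 87.8 to 90.5 in HHC against 87.9 to 88.2 in CCC. No muscle marker that could be tested was called. At the unadjusted threshold the Des promoter passed in H (1.06 ± 0.28, adjusted p = 0.116, background 4.01%) and after weight loss over both durations (1.24 ± 0.38, adjusted p = 0.181, background 1.97%), and the part of Acta1 and Des in the Cpt1b values was not tested.

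Over 22 libraries Pearson's r between members' locus signal lay between -0.520, for Ppargc1b and Prdm16, and 0.435, for Ppargc1b and Ppara, which come from the same libraries and carry no test. The genes elsewhere in the genome with the most similar locus signal over the 22 libraries were Drd1 (r = 0.927) for Ppargc1b, Ell2 (0.902) for Cpt1b, Pak3 (0.897) for Ppara, Cdk2 (0.884) for Ppargc1a and Spsb4, Tbx15 and Fam155a (0.859, 0.856 and 0.851) for Esrrg. Sytl3 (0.826) was most like Prdm16, Slc22a20 (0.831) Elovl3, Mfsd8 (0.799) Dio2 and Snrk (0.784) Ucp1.

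Related genes of the pathway were counted from lists. Of 16 brown and beige fat genes, 13 loci were tested in H against C, and Otop1, a proton channel of brown fat, rose by 1.09 ± 0.20 (adjusted p = 0.0224), the 1 of 13 called, beside 5.74% of all loci. Tbx1, a marker of beige cells, fell by 1.41 ± 0.37 in obesity (adjusted p = 0.0259) and fell by 1.69 ± 0.37 after weight loss (adjusted p = 0.0260) over both durations, the 1 of 15 tested in each, beside 3.28% and 1.07% of all loci. The median over the 15 loci was -0.03 in obesity and -0.34 after weight loss, with -0.01 over all loci in both. At promoters, 1 of 14 tested was called in each comparison over both durations, beside 1.29% and 0.135% of all promoters. Otop1 rose in obesity (1.504 ± 0.34, adjusted p = 0.0325) and Pdk4, which spares glucose for fat oxidation, after weight loss (1.21 ± 0.23, adjusted p = 0.0497). The median over the 14 promoters was 0.15 in obesity and -0.28 after weight loss, beside 0.01 and 0.04 over all promoters.

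Of 6 genes of heat production without UCP1, Ryr2, a calcium release channel, rose at the locus in H (1.52 ± 0.26, adjusted p = 0.0201) and after weight loss (2.04 ± 0.39, adjusted p = 0.0152), the 1 of 6 called in each, beside 5.74% and 1.07% of all loci. The median over the 6 loci was -0.04 in H, -0.06 in HC, -0.08 in HH, -0.49 in HHC, -0.03 in obesity and -0.30 after weight loss. Loci of 8 further transcription factors and coregulators and of 9 mitochondrial fatty acid oxidation genes had 0 calls in either direction, also at the unadjusted threshold. The oxidation genes had a median locus difference of 0.31 in obesity and 0.16 after weight loss over both durations, and the transcription factors one of -0.01 and 0.24, beside -0.01 over all genes. Ucp2 and Ucp3 were not called, though the Ucp2 promoter was at 2.26 ± 0.51 in HH against CC_l (adjusted p = 0.351).

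Control mice of different age were compared last, CC_s with C and CCC with CC_l, which differed also in the chow of the final 8 weeks. No member locus was called, and neither was any other locus (0 of 16899 between CC_s and C and 0 of 17018 between CCC and CC_l). Between CC_s and C the largest differences were -0.87 ± 0.47 in Dio2 and 0.59 ± 0.24 in Elovl3, both with adjusted p = 0.806. Between CCC and CC_l they were -0.50 ± 0.25 in Cpt1b (adjusted p = 0.538) and 0.41 ± 0.40 in Ucp1 (adjusted p = 0.709).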

How the data were processed

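ATAC-seq was performed on biotin-labelled adipocyte nuclei, and 22 peak lists were analysed, 1 per library. Per the labels and methods, the authors trimmed reads with Trim Galore 0.6.6, aligned them to mm10 (GRCm38) with Bowtie2 2.4.4, processed them with SAMtools 1.13 and bedtools 2.30, and called peaks per library with SEACR 1.3 in stringent mode. The deposited values are signal: column 4 is the total signal of a peak and column 5 its highest signal, with no read counts, so the depth is unknown. The methods state that peaks in blacklisted regions were removed. Whether that came before deposit is not given in the sources used here.

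Peaks were summed per locus, per promoter and per merged region with Python 3.11.15, numpy 2.4.6, pandas 2.3.3 and pysam 0.24.0, rank mapped, and compared in limma 3.58.1 (R 4.3.3) with an intensity trend and Benjamini-Hochberg adjustment over all features. A feature was called at adjusted p under 0.05 with a log2 difference over 1. The unadjusted threshold was p under 0.01 with the same size. limma replaced the count model of the study, since the files hold no counts. Covered share was tested by exact two-sided permutation within durations, over 200 relabellings. P-values measure the spread between animals. Each procedure was tested on simulated data.

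The 9 members and all lists were chosen with earlier results of these data known. All members were named, with regions called at the unadjusted threshold (at most 3 per member and comparison), promoter regions, list genes that were called, and the most similar genes on another chromosome or over 1 Mb away. The Ucp2 promoter and the marker genes, and the other 2 Ucp1 stretches, the Ppara stretch and the 109 kb Ppargc1b stretch, were named after their values were seen. Alternatives covered the signal column, scaling, filters, locus width, the model, a replicate block and each library left out. One lymphocyte marker and the summed values of its list are not reported here.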

Additional observations from a re-analysis of the deposited data

How the results depend on the processing

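Direction held for called member regions under every alternative run (0 sign changes in 102). Among values that were not called, the sign changed in 85 of 916 for loci, 54 of 641 for promoters and 99 of 1440 for regions. The number of loci called went from 0 to 1 with the 20000 strongest peaks in H against C and in obesity over both durations (Esrrg), and in the latter to 1 with the replicate block (Ucp1, 2.00, adjusted p = 0.0101 in limma). The 7 regions called in H against C became 1 with the highest signal, 1 with the 20000 strongest peaks, 0 with no filter, 4 with all 22 libraries in 1 fit and 1 where peaks had to cover 50% of the region. The 1 region called in obesity became 0 with the 20000 strongest peaks and 0 with the 50% cover, and it was another region with the highest signal (Ucp1, 1.12, adjusted p = 0.0192) and with library-total scaling (the second Prdm16 intron region, 3.13, adjusted p = 0.0457). Without HC replicate 3 and HHC replicate 3, chosen after seeing the data, 1 region was called after weight loss and 2 members had a covered share with exact p under 0.05 (3.43% of all genes). With covered share divided by that of the genome, 2 members passed after weight loss (11% of all genes), and 3, 4 and 2 members did not overlap in HC, HH and HHC (13.5%, 27.3% and 19.6% of all genes). With the gene span alone these were 0 after weight loss, 0 in HC and 1 in HH (17.9%), and with 50 kb on each side 2 in obesity (18.7%), 0 in HC and 0 in HH. The cause of these changes was not tested. Some counts, here and in the leave-out ranges below, have no share of all features beside them. For these a change in the members cannot be told from a change over all features. With 1 library left out, calls ranged from 0 to 6 for regions in H against C, 0 to 2 in obesity (0 without C replicate 1 or 2 or CC_l replicate 2) and 0 to 1 after weight loss. For loci they ranged from 0 to 1 in H against C, 0 to 1 in obesity and 0 to 1 after weight loss. For covered share they ranged from 3 to 5 in H, 2 to 3 in HC, 2 to 4 in HH, 2 to 4 in HHC, 1 to 3 in obesity and 1 to 2 after weight loss. With all libraries they were 3 in H, 1 in HC, 2 in HH, 1 in HHC, 1 in obesity and 1 after weight loss. Smaller groups separate more easily. Where a group of 2 lost a library, the other was assumed to vary like the other groups. Same-numbered libraries did not deviate together (r = -0.14 to 0.19 in 10 pairs), a check that cannot exclude a pairing of the animals by number. With the replicate block 1 region was called in HH against CC_l (Ucp1, 2.90, adjusted p = 0.00948) and the obese difference of that region passed (1.66, adjusted p = 0.0103), while the Esrrg region at 41.1 kb lost its call in H (adjusted p = 0.0601) and the intronic Esrrg region its call in obesity (-0.96, adjusted p = 0.0342).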
